A study of Canis lupus familiaris with 26 samples.

Results

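The yellow co-expression module is a set of genes that the study grouped by weighted network analysis of its adenoma and carcinoma stroma samples together, and its most connected genes include CDH1 and KIAA1217. Of 165 symbols listed for the module, 64 could be tied to a gene identifier. PIGR, SFRP1 and the 2 collagen genes among them were set aside, 11 averaged fewer than 5 counts, and the remaining 49 of the 18466 genes in the count table are described here. The samples were stroma cut by laser-capture microdissection from formalin-fixed, paraffin-embedded simple mammary adenomas of 13 female dogs, aged 6 to 13 years, each of another breed. Each dog gave 1 sample of adenoma-associated stroma (AAS), which the labels call cancer-associated stroma, and 1 sample of normal stroma next to unaltered mammary gland on the same slide. As the study did, pair 14 was left out of the comparison because its normal stroma library held 83727 counts, which left 12 dogs. No treatment of the animals is named in the sources used here, and the paraffin blocks were 4 to 29 months old at analysis.

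Mammary ducts and acini are lined by an inner layer of luminal cells, which carry keratins such as KRT8 and KRT19, and an outer layer of basal or myoepithelial cells, which carry KRT5, KRT14 and KRT15. Epithelial cells are held together by E-cadherin, desmosomes and tight junctions, and transcription factors of the grainyhead family keep these junction genes on. Fibroblasts of the stroma express few of these genes, so that their transcripts in captured stroma are read as epithelial signal. The captured tissue itself was checked with 4 fibroblast markers that had an identifier, VIM, DCN, PDGFRA and FBLN1. Their summed level was 1469 to 4354 normalized CPM (counts scaled to library size with TMM factors) in normal stroma and 237.8 to 2536 in AAS. DCN and FBLN1 were at 0 counts in 1 AAS library, that of pair 10. In such bulk samples, fewer cells of a type and less RNA per cell cannot be told apart.

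Total counts ran from 759119 to 1602797 in normal stroma and from 419770 to 1614120 in AAS. A count of 3, taken as the least that can be read as present, corresponded to 1.53 to 6.37 normalized CPM in normal stroma and 1.53 to 28.0 in AAS, which covers counting error only. The upper end belongs to the AAS library of pair 7, in which a single gene took 84.9% of the counts. Between 30 and 48 of the 49 members had at least 1 count in a normal stroma library, and between 19 and 49 in an AAS library. Numbers of dogs higher or lower in AAS compare normalized CPM without requiring 3 counts, so that some rest on 1 count.

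The members were chosen partly with the values described here. The module was built on co-expression over these libraries, and for 27 members the symbol is known only from a table sorted by the difference between AAS and normal stroma. The symbols of the other 22, which include EPCAM, GRHL1, GRHL2, ERBB3, SOX10, AGR2 and PIP, stand in a table ordered by identifier. Their place in the module still rests in part on these libraries. For the 27 genes fold changes, their errors and whether the thresholds of the test were met are given as a description, with no p-value. All fold changes come from edgeR's quasi-likelihood test of AAS against normal stroma over all genes. A gene counted as called at an adjusted p below 0.05 and a log2 fold change beyond 1. The low-count filter of edgeR kept 4544 genes and 33 members. Values of the other 16 members come from a second fit over the 7763 genes that averaged at least 5 counts. That minimum, which also chose the members, was taken over both groups together. ANO1, PTPRZ1, SLC26A4, THBS4 and PTPRK reached it only through their AAS libraries, and no member only through normal stroma. This favours values higher in AAS, so nothing is read from the fold changes of those genes.

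CDH1, EPCAM and other members, 9 of the 49 in all, had a count in each of the 24 libraries. Others were sparse, and the normal stroma medians of PTPRZ1 and CHI3L1 were 0. Only 4 of the 33 members in the first fit were called. All 4, CLU, ANO1, PEG3 and KIAA1217, were higher in AAS, among genes of which 0.616% were called higher and 1.8% in either direction. Since each of the 4 owes its symbol to the table sorted on this difference, nothing is read from that count. The same 4 met the thresholds with the dog as a block, where 0.638% of genes were called higher and 2.53% in either direction. Of the 22 members with a symbol from the table ordered by identifier, 13 entered the first fit and gave 0 calls, by edgeR or DESeq2. In the second fit all 22 gave 0 calls. The median log2 fold change of those 22 was 0.76, and 16 of the 22 were above 0. Over the 7763 genes the median was 0.01 and 50.6% were above 0. The 22 were also chosen by co-expression over these libraries, so nothing is read from that difference. Over all 49 members the median was 0.85, with 40 above 0, of which 24 were among the 27 genes from the sorted table, so that this is a description of values that in part chose the members. The lowest and highest values of the 2 groups overlapped for each of the 49 members, and 0.142% of the 7763 genes had no overlap.

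CDH1 (ENSCAFG00000020305), the gene of E-cadherin, was detected in each of the 24 libraries. It had 56.9 to 163 normalized CPM in normal stroma, with a median of 104.5, and 22.9 to 231 in AAS, with a median of 151. The AAS sample of pair 15 gave the lowest value of all, and 9 of 12 dogs had more CDH1 in AAS. The log2 fold change was 0.54 (standard error, SE, 0.25, 95% interval 0.03 to 1.06 without adjustment), and the gene was not called.

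EPCAM (ENSCAFG00000002653), an adhesion molecule of luminal and other simple epithelia, was likewise found in each library. Its level was 14.0 to 169.9 normalized CPM in normal stroma (median 29.1) and 14.0 to 66.9 in AAS (median 45.3). The highest value came from the normal stroma of pair 4, and the other 11 normal samples lay between 14.0 and 55.5. It rested on 80 counts, in a library where a single gene took 45.3% of the counts. Without pair 4 the log2 fold change was 0.50. The log2 fold change was 0.07 (SE 0.35, edgeR adjusted p = 0.983), with a 95% interval of -0.65 to 0.80.

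**Figure D1:**
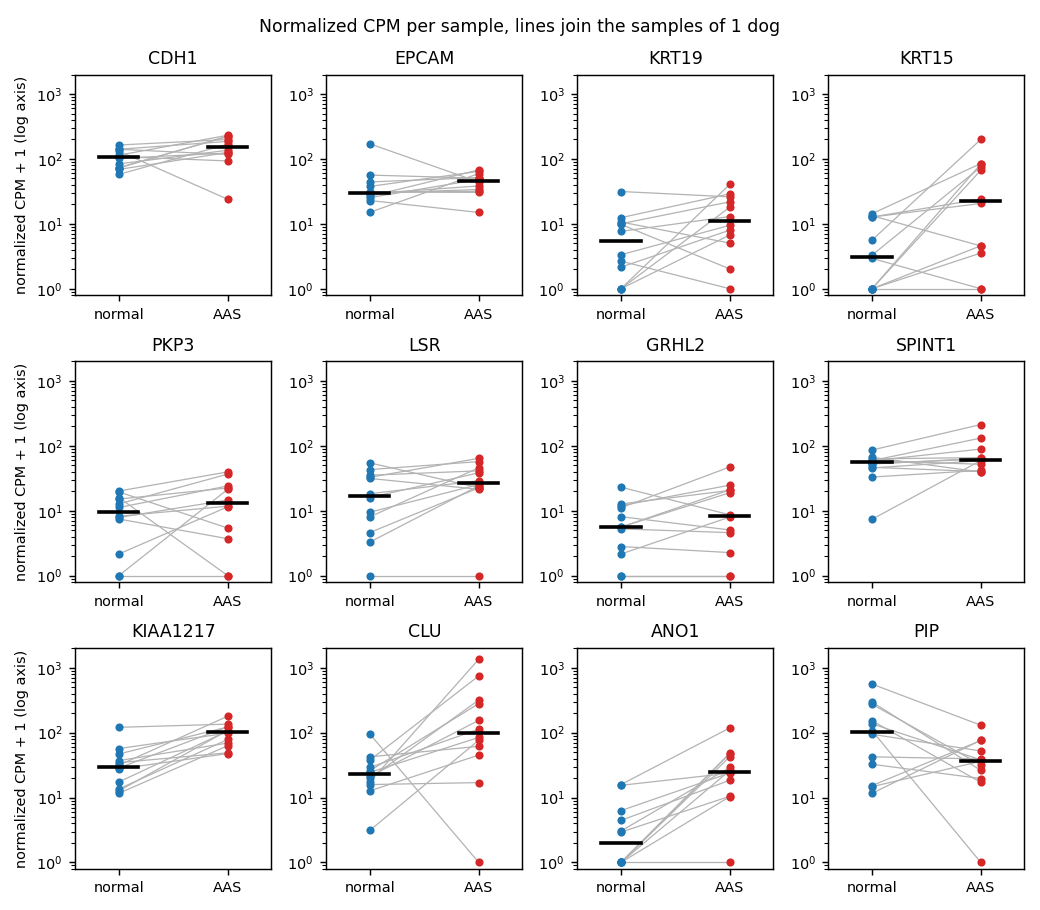
Normalized CPM + 1 on a log axis for 12 members in the 12 normal stroma samples (blue) and the 12 AAS samples (red). Grey lines join the samples of 1 dog and black bars mark medians. CDH1 and EPCAM lie above 0 in every sample, KIAA1217 is higher in AAS in 12 of 12 dogs, and PIP is lower in AAS in 9 of 12.

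The remaining adhesion and junction genes had lower counts, and none was called. LSR, a protein of tricellular junctions, had 0 to 53.6 normalized CPM in normal stroma (median 16.1) and 0 to 63.2 in AAS (median 26.1). Its log2 fold change was 0.61 (SE 0.55), and 9 dogs were higher in AAS. PKP3, a plakophilin of desmosomes, had medians of 8.72 and 12.2, with 2 libraries at 0 in each group and a log2 fold change of 0.72 (SE 0.67). FAT2, an atypical cadherin, and the receptor-type tyrosine phosphatases PTPRF, PTPRK and PTPRZ1 were higher in AAS in 5 to 9 dogs. Over the 8 members of this role, log2 fold changes in the second fit ran from 0.04 to 2.09. The 2.09 was that of PTPRZ1, which was at 0 counts in 8 normal stroma libraries. It reached the minimum of 5 counts only through AAS.

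Among keratins, the luminal KRT19 (ENSCAFG00000023647) was sparse, at 0 to 30.5 normalized CPM in normal stroma (median 4.49) and 0 to 39.7 in AAS (median 10.2). Its log2 fold change was 1.01 (SE 0.72), and it was higher in AAS in 8 of 12 dogs. The basal keratin KRT15 (ENSCAFG00000023529) had 0 to 13.3 normalized CPM in normal stroma, with a median of 2.11, and 0 to 199.3 in AAS, with a median of 21.3. The AAS samples of pairs 3, 7, 8, 10 and 12 held 66.0 to 199.3, those of pairs 5 and 11 held 19.6 and 23.1, and the other 5 held 0 to 3.595. The 84.0 of pair 7 came from 9 counts, beside 8 counts in its normal partner, in the library where 3 counts correspond to 28.0 normalized CPM. KRT15 is a low-count gene that only the second fit tested, and its log2 fold change there was 3.07 (SE 0.83). That met the thresholds, where 0.824% of the 7763 genes were called higher and 1.97% in either direction. With the dog as a block the log2 fold change was 2.78 (SE 0.92), and the gene was not called, while 0.734% of genes were called higher. The call was also lost without pair 3, 7, 8, 10 or 12, at log2 fold changes of 2.90, 3.18, 2.89, 2.57 and 2.82. Keratins have close relatives in the genome, so that the split of reads between them is uncertain.

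KIAA1217 (ENSCAFG00000004237) ran from 10.6 to 120.0 normalized CPM in normal stroma, with a median of 29.1, and from 46.7 to 178.3 in AAS, with a median of 101.2. The normal stroma of pair 9 was the only normal sample above the AAS median, and each of the 12 dogs had more in AAS. In pair 7 that held only after scaling, with 16 counts in normal stroma and 5 in AAS. The log2 fold change of KIAA1217 was 1.44 (SE 0.34), and 1.67 (SE 0.33) with the dog as a block. Without pair 8 it was 1.29 and the gene was not called. The cytoskeletal members MYH14, a non-muscle myosin, SNTB1, a syntrophin, SORBS2, an adaptor of actin fibres, and TNS4, a tensin of epithelial cells, were not called, with 5 to 9 dogs higher in AAS.

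**Figure D2:**
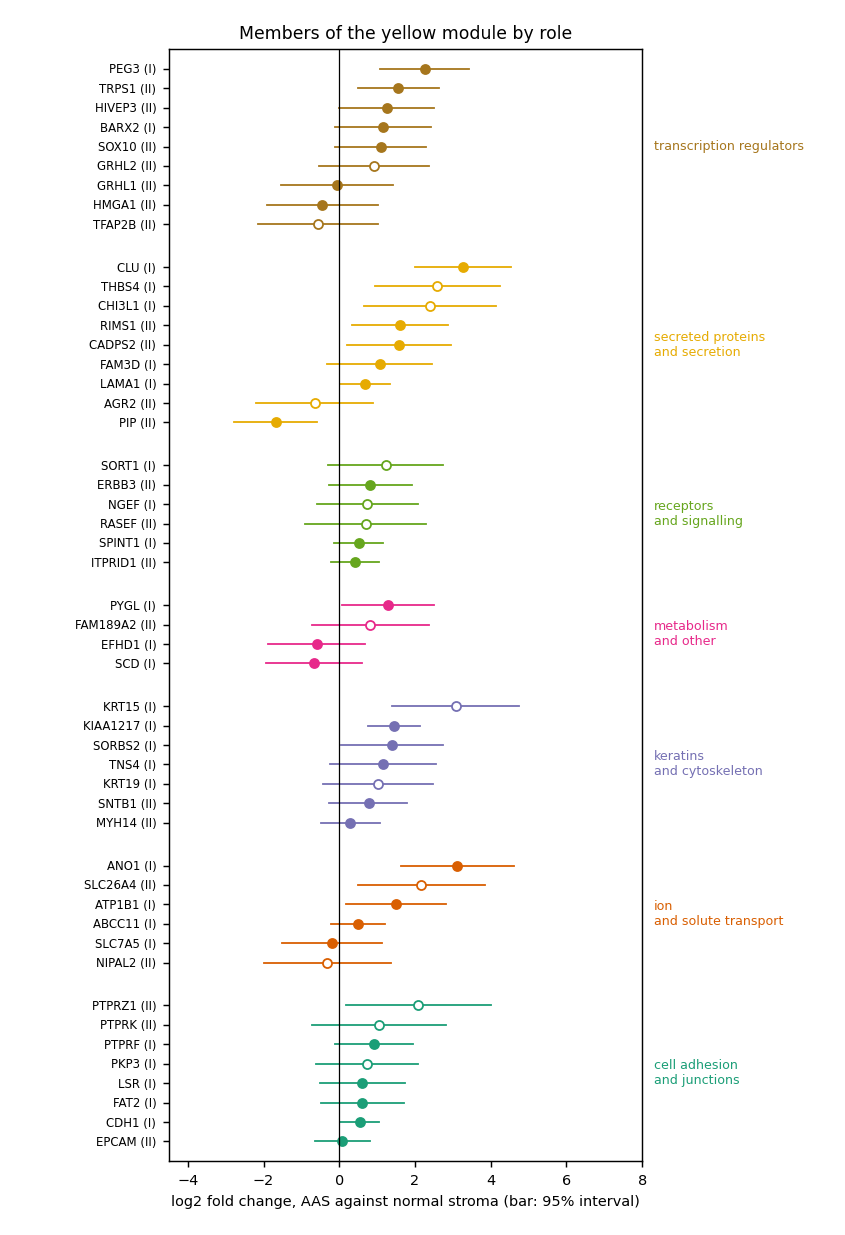
Log2 fold change of AAS against normal stroma for the 49 members, grouped by role, with 95% intervals without adjustment. Filled points come from the fit over 4544 genes and open points from the fit over 7763 genes, and (I) marks symbols known only from the table sorted on this difference. Junction genes lie between EPCAM at 0.07 and PTPRZ1 at 2.09, and secreted proteins spread from PIP at -1.67 to CLU at 3.26.

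Secreted proteins spread furthest. CLU (ENSCAFG00000008404) encodes clusterin, an extracellular chaperone. It ran from 2.12 to 94.3 normalized CPM in normal stroma, with a median of 21.8, and from 0 to 1355 in AAS, with a median of 97.9. The AAS samples of pairs 10 and 11 held 748 and 1355, while that of pair 15 had 0 counts against 94.3 in its normal partner, the highest normal value. The log2 fold change was 3.26 (SE 0.63), and 11 of 12 dogs were higher in AAS. With the dog as a block it was 2.50 (SE 0.62), and leaving out 1 dog at a time gave 2.53 to 3.72.

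PIP (ENSCAFG00000003648), the prolactin-induced protein of apocrine and mammary secretion, was lower in AAS in 9 of 12 dogs. Normal stroma had 10.6 to 560.8 normalized CPM, with middle values of 93.5 and 106.6, and AAS had 0 to 129.4, with a median of 36.2. Only the dogs of pairs 3, 4 and 12 had more PIP in AAS, and their normal stroma held 13.7, 10.6 and 14.3, the 3 lowest normal values. The log2 fold change was -1.67 (SE 0.54), which did not pass (edgeR adjusted p = 0.124). With the dog as a block it was -1.33 (SE 0.61, edgeR adjusted p = 0.449). In the second fit PIP was called when pair 4 or pair 12 was left out, at -1.96 and -1.94. Both are dogs with more PIP in AAS, so that leaving them out lowers the fold change. In the second fit with all 12 dogs 1.15% of the genes were called lower. The gene overlaps KEL in a reference gene table by start and end positions alone, and whether the transcripts share reads was not tested.

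AGR2, a protein disulphide isomerase of secretory epithelia, had 0 to 56.6 normalized CPM in normal stroma (median 12.1) and 0 to 32.4 in AAS (median 8.10). Of 12 dogs 5 were higher and 5 lower in AAS, with a log2 fold change of -0.65 (SE 0.76, edgeR adjusted p = 0.903). CHI3L1, a secreted chitinase-like protein, and THBS4, a thrombospondin, were at 0 counts in 7 and 5 normal stroma libraries and higher in AAS in 8 and 10 dogs. For THBS4 the dogs of pairs 6 and 7 each had 0 counts in normal stroma and 1 in AAS. LAMA1, a laminin chain of basement membranes, FAM3D, and the vesicle release genes CADPS2 and RIMS1 were higher in AAS in 8 to 10 dogs. Of the 9 secreted or secretion genes, CLU alone was called.

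Among ion and solute transporters, ANO1 (ENSCAFG00000010664), a calcium-activated chloride channel, was at 0 counts in 6 normal stroma libraries. It ran from 0 to 14.9 normalized CPM there and from 0 to 117.5 in AAS, with a median of 24.0. It was higher in AAS in 11 of 12 dogs, of which that of pair 7 had 0 counts in normal stroma and 1 in AAS. The dog of pair 15 had 0 counts in both samples. The log2 fold change was 3.12 (SE 0.73), and 3.63 (SE 0.77) with the dog as a block. ATP1B1, a subunit of the sodium pump, and SLC26A4, an anion exchanger, were higher in AAS in 10 and 9 dogs and not called. ABCC11, an efflux transporter of apocrine glands, was higher in 8 dogs, the amino acid transporter SLC7A5 in 4 and NIPAL2 in 5.

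Of the transcription regulators, the grainyhead factors GRHL1 and GRHL2, which maintain junction genes in epithelia, did not pass. GRHL1 had 0 to 20.0 normalized CPM in normal stroma (median 12.0) and 0 to 38.5 in AAS (median 7.81), and was lower in AAS in 8 dogs. Its log2 fold change was -0.06 (SE 0.72, edgeR adjusted p = 0.993), with a 95% interval of -1.53 to 1.42. GRHL2 had 0 to 22.1 (median 4.59) and 0 to 46.3 (median 7.32), with a log2 fold change of 0.92 (SE 0.72, edgeR adjusted p = 0.808). Its 95% interval ran from -0.54 to 2.38, and both intervals include a log2 fold change of 1.

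SOX10, a factor of basal mammary cells and of glia, ran from 0 to 29.7 normalized CPM in normal stroma (median 8.66) and from 0 to 60.7 in AAS (median 17.6). It was higher in AAS in 10 dogs, with a log2 fold change of 1.09 (SE 0.59, edgeR adjusted p = 0.579). PEG3 (ENSCAFG00000029153), an imprinted zinc finger gene, had 0 to 65.0 normalized CPM in normal stroma (median 12.9) and 4.41 to 151.8 in AAS (median 83.8), and was higher in AAS in 12 of 12 dogs. Before scaling, PEG3 had 5 counts in normal stroma and 4 in AAS in pair 12, and 10 and 3 in pair 7. Its log2 fold change was 2.25 (SE 0.58), and the call was lost without pair 3, 6, 8 or 10, at 2.15, 2.03, 2.07 and 2.21. TRPS1, a GATA-type repressor, the zinc finger gene HIVEP3 and the homeobox gene BARX2 were higher in AAS in 9, 9 and 7 dogs. The chromatin protein HMGA1 was higher in 6 dogs and the AP-2 factor TFAP2B in 3.

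The 6 receptors and signalling genes were all above 0, with log2 fold changes of 0.38 to 1.23 in the second fit. ERBB3 (ENSCAFG00000000097), a receptor that pairs with other members of its family to bind neuregulins, had 0 to 44.6 normalized CPM in normal stroma (median 15.7) and 0 to 45.3 in AAS (median 33.2). Its log2 fold change was 0.81 (SE 0.54, edgeR adjusted p = 0.691), and 9 dogs were higher in AAS. SPINT1, an inhibitor of the epithelial protease matriptase, had 6.37 to 85.1 in normal stroma (median 55.0) and 38.5 to 212 in AAS (median 60.0), with a log2 fold change of 0.52 (SE 0.32). The sorting receptor SORT1, the exchange factor NGEF, the small GTPase RASEF and ITPRID1 were higher in AAS in 6 to 9 dogs. None of the 6 was called.

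The metabolic members were above 0 in 2 cases and below 0 in 2. SCD, the desaturase that makes monounsaturated fatty acids, ran from 0 to 543.9 normalized CPM in normal stroma (median 56.4) and from 2.20 to 367 in AAS (median 28.8). It was lower in AAS in 8 dogs, with a log2 fold change of -0.68 (SE 0.62). Without pair 6, whose normal stroma held the highest value, the fold change was 0.03. EFHD1, a calcium-binding protein of mitochondria, had 0 to 74.0 in normal stroma (median 22.3) and 0 to 82.0 in AAS (median 8.52). It was lower in AAS in 9 dogs, with a log2 fold change of -0.60 (SE 0.63), which was -1.20 with the dog as a block, -1.22 without pair 9 and -0.34 without pair 6. PYGL, a glycogen phosphorylase, was higher in AAS in 10 dogs, and FAM189A2 in 6.

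Dogs differed in how many members were higher in AAS. The pair of dog 8 had 41 of 49 members higher, or 83.7%, beside 55.6% of the 7763 genes, and the pair of dog 10 had 38, or 77.6% beside 33.1%. In pair 9 it was 23 members, or 46.9% beside 50.3%, and in pair 15 it was 12, or 24.5% beside 32.1%, with 22 lower and 15 equal. In 10 of 12 pairs more members were higher than lower, in pair 7 by 23 against 22. The share of the 7763 genes higher in AAS ran from 32.1% to 59.9% over the 12 pairs. Since the members were chosen partly with these values, nothing is read from the count of pairs. The AAS samples of pairs 8 and 10 also stood out against normal stroma, with 29 and 26 members above the highest of the 12 normal values, or 59.2% and 53.1% of members, against 5 to 14 in the other 10 AAS samples. Of the 7763 genes, 18.7% and 12.5% exceeded the highest normal value in these same samples, and 5.85% to 13.0% did in the other 10. These 2 libraries held 499178 and 419770 counts, where 3 counts correspond to 3.96 and 10.5 normalized CPM.

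**Figure D3:**
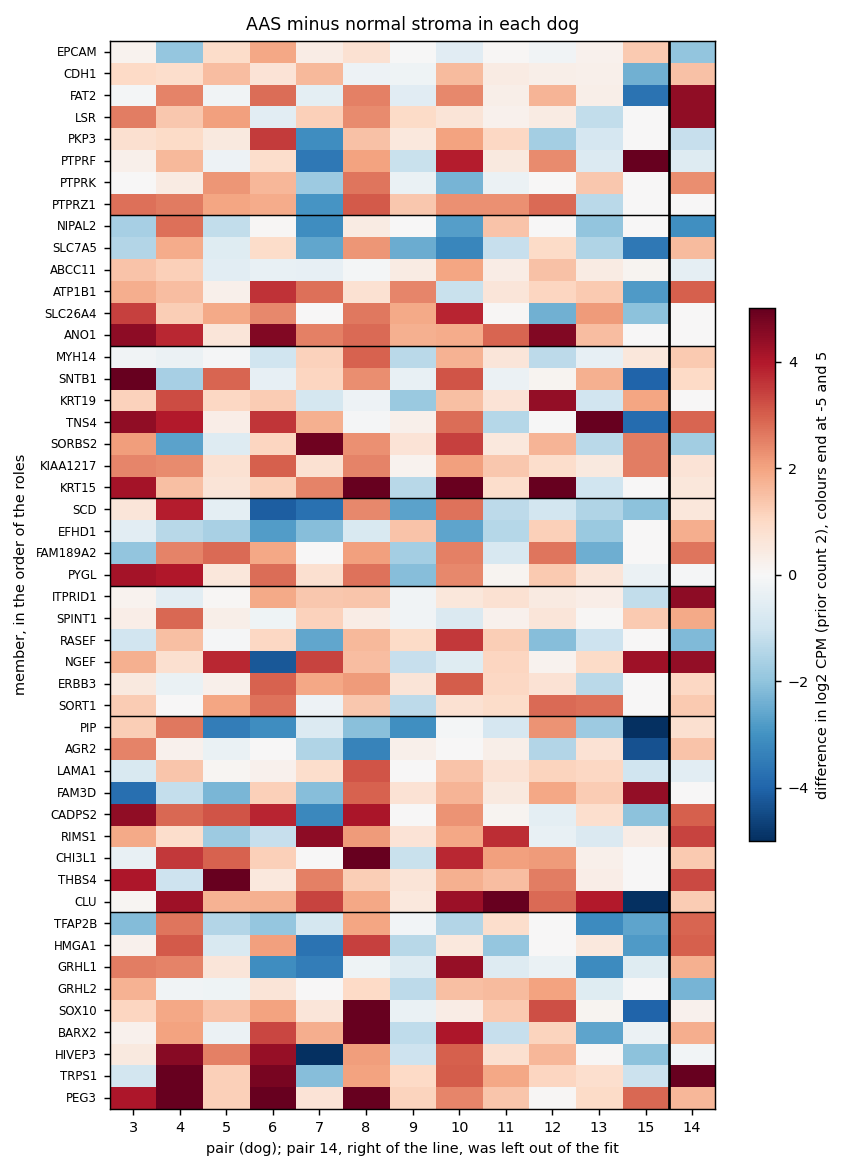
Difference in log2 CPM (prior count of 2) between AAS and normal stroma for each of the 49 members (rows, by role) in each dog (columns), with pair 14, which entered no fit, at the right. Red marks members higher in AAS. Pair 8 is red in 41 of 49 rows, and pair 15 in 12.

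Members followed CDH1 to different degrees across samples of a kind. Among the 12 AAS samples, the Spearman correlation of log2 CPM with CDH1 had a median of 0.16 over the other 48 members and ran from -0.55 to 0.79. KRT15 gave the highest value, and EPCAM gave -0.52. In normal stroma the median was 0.05, and EPCAM gave 0.34. Against the summed CPM of all other members the median was 0.46 in AAS and 0.22 in normal stroma. These are descriptions over 12 points that share library depth, for genes chosen by co-expression in part on the same samples.

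The summed level of the 49 members was 683.7 to 1987 normalized CPM in normal stroma, with a median of 1102, and 827.1 to 3980 in AAS, with a median of 1665. The sum of the fibroblast markers was lower in AAS in each of the 12 dogs, though not in pair 14. It was lowest in the AAS samples of pairs 10 and 8, at 237.8 and 516.3, which held the highest sums of members, 3980 and 3346. The AAS of pair 11 came next with 3240, of which CLU gave 1355. Its fibroblast sum was 1255, above the AAS median of 1040. Both sums share the scale of a library, and their relation was not tested. In pair 15 the sum of fibroblast markers fell from 3050 to 1056 and that of the members from 947 to 827.1. VIM, DCN and FBLN1 were lower in AAS in 12 of 12 dogs, with log2 fold changes of -1.13, -1.96 and -1.71 (edgeR adjusted p = 0.00419, 0.00996 and 0.00508), and PDGFRA (-0.44) was not called. The luminal markers KRT19 and EPCAM, 2 of 5 with an identifier, summed to 16.4 to 169.9 in normal stroma and 21.0 to 89.2 in AAS. Of the basal or myoepithelial markers, 3 of 10 had an identifier. MYLK, a kinase of smooth muscle and myoepithelium, was higher in AAS in 9 dogs and ACTG2, a smooth muscle actin, in 6, with summed levels of the 3 of 4.25 to 135.3 in normal stroma and 42.0 to 398.8 in AAS. Of 6 epidermal markers, SPINK5 and DMKN had an identifier, with summed levels of 0 to 157.1 in normal stroma and 1.10 to 78.3 in AAS. SPINK5 was lower in AAS in 9 dogs (log2 fold change -2.92, edgeR adjusted p = 0.0667) and DMKN higher in 7 (0.82, edgeR adjusted p = 0.643). Markers of secretory epithelium, endothelium, leukocytes and adipocytes were not analysed here. The part of these cell types in the values of the members was not tested.

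**Figure D4:**
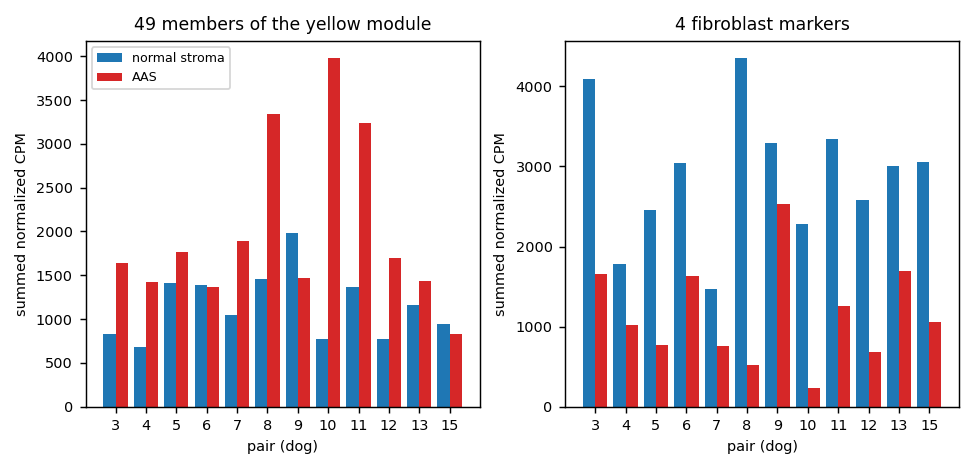
Summed normalized CPM per sample for the 49 members (left) and for the fibroblast markers VIM, DCN, PDGFRA and FBLN1 (right), with normal stroma in blue and AAS in red for each of the 12 dogs. The member sum is highest in the AAS of pairs 10 and 8, where the fibroblast sum is lowest. The AAS of pair 11 comes next at 3240, of which CLU gives 1355, with a fibroblast sum of 1255.

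The threshold of 5 counts separated SH3D21, with a mean of 4.75, COBL, with 4.12, and SLC1A1, with 4.08, from PTPRZ1, with 6.42, and PTPRK, with 6.62. The other genes below it were EPHA1, SPDEF, MYB, CFTR, TSPAN8, CA9, MDFI and SCUBE1, with means of 1.79 to 3.96. The list of 34 further epithelial genes drawn up for comparison, with KRT8, KRT18, KRT5, KRT14, ELF3, EHF and the milk proteins among them, had no identifier in the tables used here and was not analysed.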

How the data were processed

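The authors quantified reads with kallisto 0.44.0 on Ensembl transcripts of CanFam3.1, summed them per gene with tximport and deposited estimated counts, not normalized; the stored values are whole, so that rounding changed none. The library kit keeps strand; whether counting used it is not given in the sources used here. Gene symbols and module membership come from the study's supplementary tables, of which no value was used. Members, role groups and marker lists were chosen with earlier results of these data known. Groups and dogs follow the sample labels.

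Counts were filtered with filterByExpr, scaled by TMM and tested with edgeR 4.0.16 (glmQLFit, glmQLFTest) in R 4.3.3, without a pair term, over 12 AAS and 12 normal stroma samples, with Benjamini-Hochberg adjustment. Standard errors are the log2 fold change divided by the square root of F. The 2 samples of a dog share its number: their deviations from the group means correlated at 0.125 on average, against -0.00606 between dogs, so the dog was a block in an alternative fit. Other alternatives were DESeq2 1.42.0, RLE scaling, other filters, pair 14 added, the 10 highest genes removed and each dog left out. Log2 CPM carries a prior count of 2. On simulated counts with 200 genes changed 4-fold, the fit recovered 135 with 1 false call among 4195 genes. Under the filter on a mean of 5 it recovered 147 with 9 false calls among 7810. The 200 genes were drawn from the 4544 that the first filter kept. Recovery of low-count genes that only the second fit tested was therefore not examined. The simulated samples of a dog were not correlated. Named genes are a fixed list of epithelial genes, every member called in the first fit, and the 3 largest and 3 smallest fold changes among members that it kept. The other members are given by counts of dogs. ABCC11, CADPS2, NGEF, PIP and PYGL overlap another coding gene in a reference gene table of assembly UU_Cfam_GSD_1.0, used for this only. No sequences are shown. The result for another cell type marker is not reported here.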

Additional observations from a re-analysis of the deposited data

Results flagged for a closer look

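Pair 14 entered neither the module nor any fit above except where said, so that its values are independent of how the members were chosen. In its AAS sample, of 824086 counts, 8 of 49 members exceeded the highest of the 12 normal stroma samples, or 16.3%, beside 10.2% of the 7763 genes in the same sample. They were CLU at 159.2 normalized CPM, TNS4 at 120.8, TRPS1 at 81.5, AGR2 at 60.9, GRHL1 at 54.0, SOX10 at 42.2, SORT1 at 20.6 and THBS4 at 17.7. CDH1 had 28.8 normalized CPM in the normal stroma of pair 14, from 4 counts, and 82.5 in its AAS, from 84 counts. EPCAM had 93.5, from 13 counts, and 22.6, from 23 counts. ANO1 had 0 counts in both samples, and KRT15 had 0 and 1. In the normal stroma library 22 members were at 0 counts, where 3 counts correspond to 21.6 normalized CPM. The summed level of the members was 783.9 normalized CPM in the normal stroma and 1481 in the AAS of this dog, and that of the fibroblast markers was 2539 and 2841, not lower in AAS as in the other 12 dogs. The difference within this pair has no replicate.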

How the results depend on the processing

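The number of members called was 4 in the first fit and stayed at 3 to 5 with the dog as a replicate block (4), DESeq2, RLE scaling, the filter on a mean of 5 counts (5), pair 14 added (3) and the 10 highest genes removed. Without a filter it was 10 of 49 members, where 1690 of 18441 genes were called. Leaving out 1 dog at a time gave 1 to 4, and the 1 came without pair 8, where CLU alone was called and ANO1 was removed by the filter. ANO1 was also removed by the filter without pair 5 and with pair 14 added. In the fit on a mean of 5 counts, leaving out 1 dog gave 3 to 6 calls among members, and there KIAA1217 was lost without pair 6 or pair 8, and PEG3 without pair 6. The number of all genes called was 82 of 4544. It was 134 of 4544 by DESeq2, 153 of 7763 with the filter on a mean of 5 counts, and 183 of 7763 with that filter and the dog as a block. With 1 dog left out it was 71 to 99, among 4362 to 4929 genes tested. With that filter and 1 dog left out it was 123 to 158, among 7558 to 8001. The cause of these moves was not tested. The median log2 fold change of the members, 0.81 in the first fit, stayed at 0.61 or above with 1 dog left out. EPCAM turned to -0.09 with pair 14 added and ran from -0.07 to 0.50 with 1 dog left out (-0.07 to 0.47 with the filter on a mean of 5), GRHL1 turned to 0.40 and ran from -0.58 to 0.18 (-0.62 to 0.15), and SCD ran from -1.37 to 0.03 (-1.42 to -0.03). PIP was called without a filter (-1.70). With the block, KRT15 was the 1 named member whose call changed (log2 fold change 2.78). Of 526 results for named members under alternatives, 491 kept direction and call. Fits that combine the filter on a mean of 5 counts with the block or with 1 dog left out were chosen after seeing the data. Many values from the AAS libraries of pairs 7, 10 and 15 rest on few counts, and members at 0 there were not read as absent. In the AAS of pair 15, CLU had 0 counts and SPINT1 had 111, where 3 counts correspond to 5.73 normalized CPM. The cause of such zeros was not tested.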
